A study of Mus musculus with 12 samples.

Results

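The proteasome subunit genes of mouse osteoclast precursors were followed across a culture with and without the osteoclast-inducing cytokine RANKL. Members were the protein-coding genes of the count table whose names begin with Psma, Psmb, Psmc, Psmd or Psme and a number, leaving out the immunoproteasome genes Psmb8, Psmb9 and Psmb10. The rule found 41 of 23863 genes, and all 41 were among the 13236 genes that passed a filter on low counts. They comprise 14 core-particle genes (7 of the alpha ring and 7 of the beta ring), 17 regulatory-particle genes (6 base ATPases, 3 other base subunits and 8 lid subunits), 4 activators and 3 chaperones that assemble the base. The rule also takes in Psma8, a testis form of an alpha subunit, Psme2b, an intronless copy of Psme2, and Psmc3ip, whose product is a cofactor of DNA recombination and no proteasome subunit.

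The cells were sorted from the bone marrow of mice with 1 floxed Runx1 allele, written Runx1 fl/+, as CD45R-, CD3-, CD11b-/lo and CD115+ cells, a population that holds osteoclast precursors. They were cultured with M-CSF+RANKL, with RANKL at 30 ng/ml, or with M-CSF alone, for 3 days by the sample titles and 6 days by the growth protocol. Poly(A) RNA of 12 cultures was sequenced: 3 of female cells with M-CSF+RANKL, 3 of female cells with M-CSF, 3 of male cells with M-CSF+RANKL and 3 of male cells with M-CSF. All 4 groups carry the same floxed allele and the titles also carry the tag WT. The labels name no Cre, give no age and do not say whether replicates came from separate mice, so the p-values below measure the spread between these libraries, which may be technical.

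The proteasome degrades proteins tagged with ubiquitin. Its barrel-shaped core particle is a stack of alpha and beta rings, in which Psmb5, Psmb6 and Psmb7 carry the chymotrypsin-like, caspase-like and trypsin-like active sites. The regulatory particle caps the barrel: a lid removes ubiquitin, and a base with a ring of ATPases unfolds the substrate and feeds it in. In osteoclast precursors RANK signalling uses the proteasome to destroy the inhibitor of NF-kappaB, and proteasome inhibitors are known to reduce osteoclast formation.

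Libraries held 14303174 to 15983769 counts with M-CSF+RANKL, against 10646697 to 14113420 with M-CSF. The 10 osteoclast markers summed to 29358 to 39126 CPM (counts of a gene per 1000000 counts of the library, after TMM scaling) with M-CSF+RANKL and 73.4 to 79.8 CPM with M-CSF, and all 10 were called higher. Of 10 macrophage markers 8 were called lower, and the median log2 change of the 10 was -4.18. They summed to 2928 to 3279 CPM with M-CSF+RANKL and 6416 to 7373 CPM with M-CSF. Within these sums Csf1r overlapped between treatments, at 1311 to 1654 CPM with M-CSF+RANKL and 1247 to 1672 CPM with M-CSF. None of 10 neutrophil granule markers was called (59.2 to 322 CPM against 56.9 to 313 CPM). The T cell marker Trac stood at 1.52 to 3.99 CPM with M-CSF+RANKL and at 0 with M-CSF, while Cd3d stayed at or below 0.0712 CPM in every library. Mitochondrial genes took 2.96% to 3.86% of counts with M-CSF+RANKL, against 1.43% to 2.35% with M-CSF. Osteoclast and macrophage markers thus moved with the treatment, and their part in the subunit changes was not tested. In bulk samples fewer cells of a type and less RNA per cell cannot be told apart.

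The promoters of 4 members, the base chaperone Psmd10 among them, show what lies upstream of genes that moved differently. They are RefSeq sequence of build GRCm38.p6, on the strand of the gene, cut to stretches without annotated exons. Psmd10 (chrX:140956729-140956906, minus strand) rose most of all members, Psmb5 (chr14:54618023-54618245, minus strand) rose, Psmb6 (chr11:70525107-70525356, plus strand) was not called and Psmc1 (chr12:100109952-100110153, plus strand) fell. Capitals mark TGACNNNGC, the core of the element bound by the transcription factors Nrf1 and Nrf2, in Psmb5 and Psmb6. They also mark CCAAT, which NF-Y binds, in Psmc1 and, as its reverse complement ATTGG, in Psmd10. A further CCAAT of Psmd10, on the gene strand 230 to 226 bases before the start, lies outside the stretch shown.
Psmd10: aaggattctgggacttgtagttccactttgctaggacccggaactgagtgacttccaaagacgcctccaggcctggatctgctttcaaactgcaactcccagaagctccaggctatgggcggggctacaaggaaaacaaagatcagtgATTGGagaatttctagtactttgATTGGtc
Psmb5: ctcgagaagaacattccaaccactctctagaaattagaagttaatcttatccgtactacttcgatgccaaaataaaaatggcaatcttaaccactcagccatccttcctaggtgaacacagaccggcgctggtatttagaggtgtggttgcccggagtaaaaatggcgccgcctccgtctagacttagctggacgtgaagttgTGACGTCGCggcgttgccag
Psmb6: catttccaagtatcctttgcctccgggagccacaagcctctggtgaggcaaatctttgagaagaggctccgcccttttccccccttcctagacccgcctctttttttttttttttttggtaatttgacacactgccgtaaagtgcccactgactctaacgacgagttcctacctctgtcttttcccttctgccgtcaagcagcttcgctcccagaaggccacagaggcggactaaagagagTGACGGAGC
Psmc1: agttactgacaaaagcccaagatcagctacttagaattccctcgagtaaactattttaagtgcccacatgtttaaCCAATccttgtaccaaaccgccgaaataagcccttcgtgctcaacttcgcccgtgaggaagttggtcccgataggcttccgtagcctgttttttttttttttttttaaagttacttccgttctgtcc

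A promoter window, from 250 bases before to 50 after the start, was given for 34 of the 41 members. None was given for Psma8, Psmb1, Psmb2, Psmb7, Psmc3, Psmd3 and Psmd7, so neither motif was searched in them. Of these, Psmb7 and Psmd7 were called higher and Psmc3 lower. TGACNNNGC, searched on both strands, was in 6 of the 34 (17.6%), namely Psmb5, Psmb6, Psmc6, Psmd12, Psmd9 and Psme4, and in 3781 of 27025 genes with a window (13.99%). CCAAT, also on both strands, was in 13 of the 34 (38.2%) and in 11096 of the 27025 (41.1%). The share of members with either motif was thus near that of all genes. Of 11 core genes 2 held TGACNNNGC and 6 held CCAAT, against 2 and 4 of 14 regulatory genes. Of the 6 members with the first motif only Psmb5 was called higher. Psmd9 and Psme4 were called lower, Psme4 not in every fit, and Psmb6, Psmc6 and Psmd12 were not called.

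With M-CSF+RANKL, 8 of the 41 members were called higher and 9 lower than with M-CSF, and 24 were not called (edgeR quasi-likelihood test over both sexes, Benjamini-Hochberg adjusted p below 0.05). The called share was 41.5%, against 64.7% of all 13236 genes tested. Changes were small: Psmd10 alone was called with a change of at least 2-fold, while 28.2% of all genes were. The 95% interval of the change lay within 1.5-fold either way for 32 of 41 members (78%), against 33.8% of all genes. The width of such an interval also depends on abundance, which was not matched between members and all genes. The median log2 change of the members was -0.06, and that of all genes was 0.02. In 6 members all 6 libraries with M-CSF+RANKL lay above all 6 with M-CSF (24.3% of all genes) and in 4 they lay below (22.7%).

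**Figure D1:**
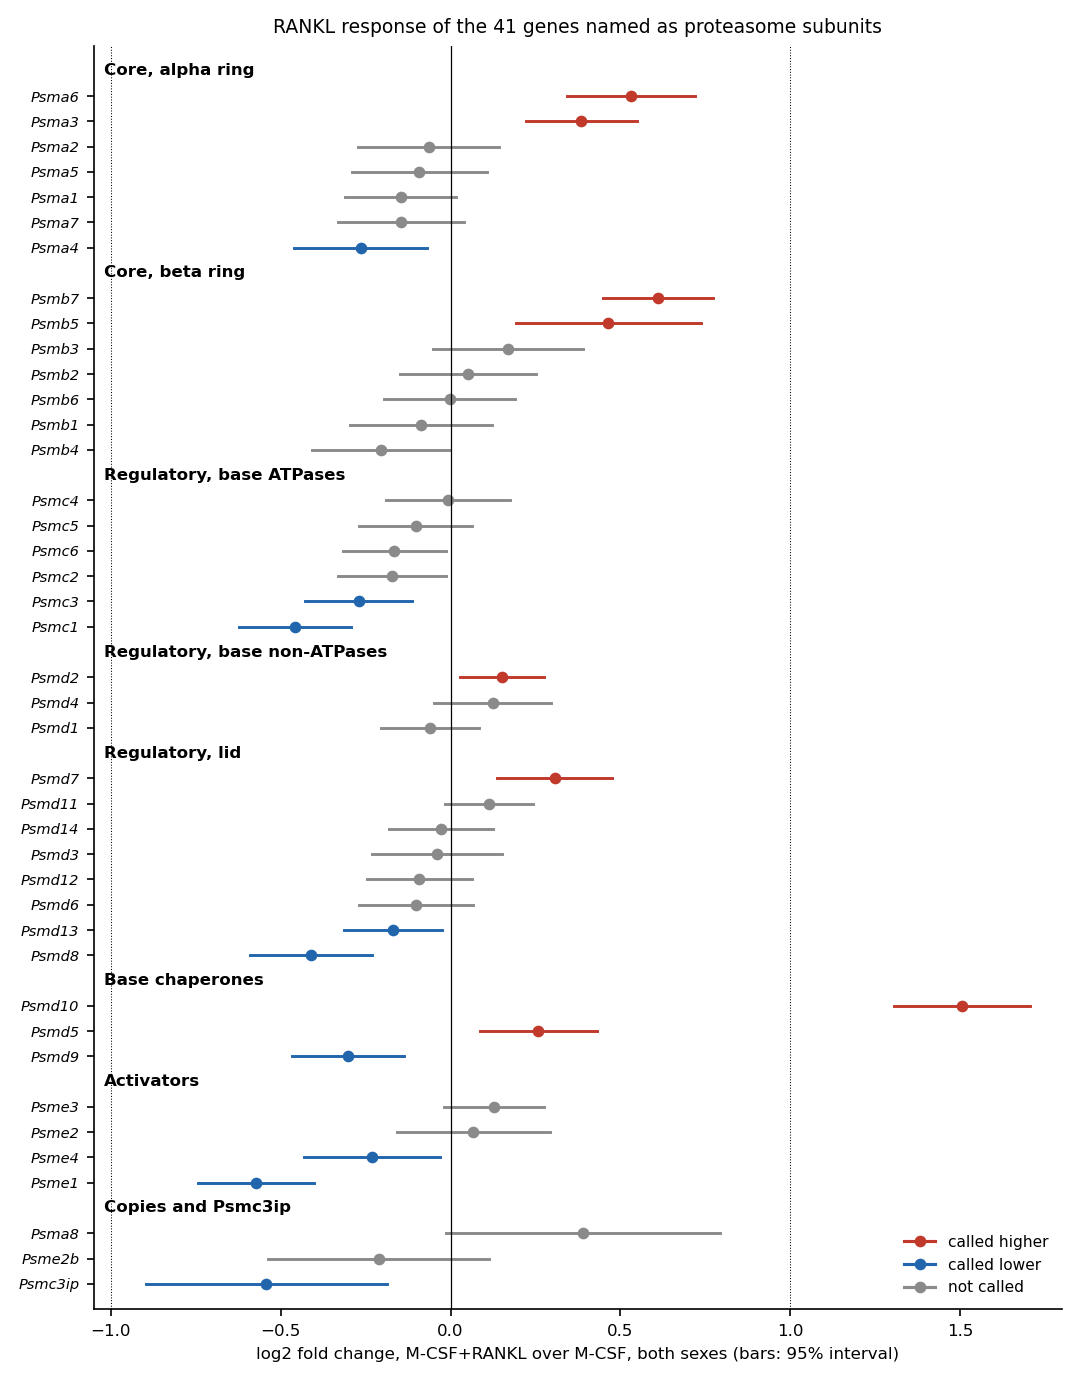
Log2 fold change of each of the 41 members, M-CSF+RANKL over M-CSF with both sexes together (points, with 95% intervals as bars), grouped by place in the proteasome; dotted lines mark 2-fold. Psmd10 stands at 1.51 and the other 40 members lie between -0.57 and 0.61.

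In the core particle 4 of 14 genes were called higher and 1 lower, and the median log2 change was -0.03. The 4 were the catalytic Psmb7 and Psmb5 and the alpha-ring genes Psma6 and Psma3, and the 1 was the alpha-ring gene Psma4. Background shares were 33.4% higher and 31.3% lower. The catalytic subunits parted: Psmb7 and Psmb5 rose, and Psmb6 was not called.

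Psmb7, the trypsin-like subunit, had 132, 174 and 145 CPM in female and 161, 146 and 138 CPM in male M-CSF+RANKL libraries, against 101, 106 and 104 CPM in female and 91.5, 91.2 and 94.9 CPM in male M-CSF libraries. Every M-CSF+RANKL library lay above every M-CSF library. The log2 change was 0.61 ± 0.075 (SE; edgeR quasi-likelihood, adjusted p = 6.7e-06). Psmb5, the chymotrypsin-like subunit and the main target of the drug bortezomib, had 102, 149 and 96.7 CPM in female and 133, 109 and 105 CPM in male M-CSF+RANKL libraries, against 82.8, 99.2 and 89.7 CPM in female and 92.7, 79.6 and 61.3 CPM in male M-CSF libraries. The highest M-CSF library passed the lowest M-CSF+RANKL library, so the groups overlapped, and the log2 change was 0.46 ± 0.126 (edgeR, adjusted p = 0.0052). Psmb6, the caspase-like subunit, had 213, 275 and 228 CPM in female and 267, 226 and 207 CPM in male M-CSF+RANKL libraries, against 243, 246 and 244 CPM in female and 253, 236 and 198 CPM in male M-CSF libraries. Its groups overlapped through most of their range and the 95% interval of its log2 change ran from -0.20 to 0.19.

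The ratio of Psmb7 to Psmb6, which needs no scaling between libraries, was 0.605 to 0.665 with M-CSF+RANKL and 0.361 to 0.480 with M-CSF, with no overlap. The ratio of Psmb5 to Psmb6 was 0.424 to 0.541 against 0.310 to 0.403, again with no overlap. Between Psmb7 and Psmb5 the ratio overlapped, at 1.17 to 1.5 against 0.987 to 1.55. The annotation lists pseudogene copies of all 3 genes. How reads shared with copies were counted is not known, so part of these levels may belong to copies. Psmb6-ps2, the copy in the count table, had at most 1 count in a library.

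**Figure D2:**
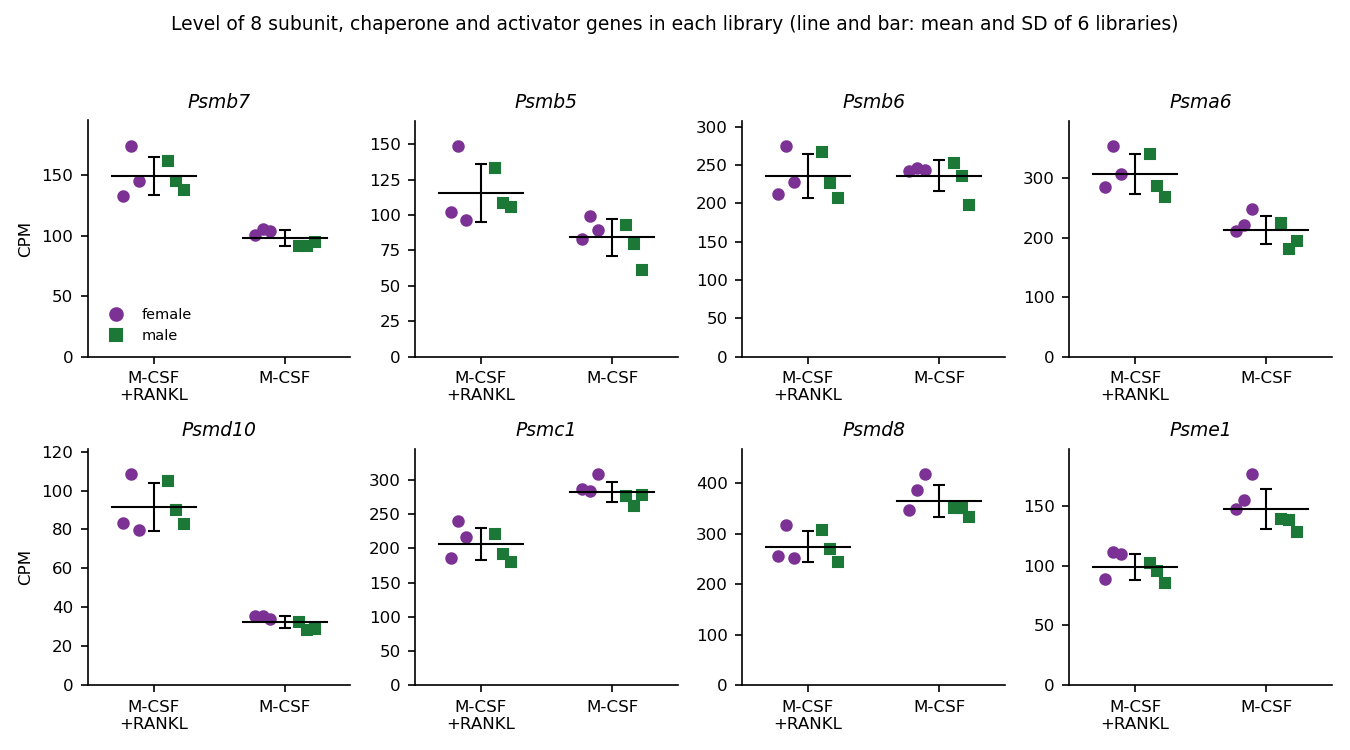
CPM in each library for 3 catalytic subunits (Psmb7, Psmb5, Psmb6), an alpha-ring subunit (Psma6), a chaperone (Psmd10), 2 regulatory subunits (Psmc1, Psmd8) and an activator (Psme1); circles are female and squares male cultures, M-CSF+RANKL on the left of each panel, with lines and bars for the mean and SD of 6 libraries. Psmb7, Psma6 and Psmd10 are higher and Psmc1, Psmd8 and Psme1 lower in all 6 M-CSF+RANKL libraries, and Psmb6 overlaps.

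In the alpha ring, which gates the barrel, 2 genes rose and 1 fell. Psma6 had 286, 355 and 307 CPM in female and 341, 287 and 268 CPM in male M-CSF+RANKL libraries, against 211, 221 and 248 CPM in female and 224, 181 and 194 CPM in male M-CSF libraries. No library of one treatment reached the other's range and the log2 change was 0.53 ± 0.087 (edgeR, adjusted p = 0.00011). Psma3 ran from 220 through a median of 241 to 271 CPM with M-CSF+RANKL, against 166 through 190 to 198 CPM with M-CSF (log2 change 0.38 ± 0.076, edgeR adjusted p = 0.00048), also without overlap. Psma4, whose yeast counterpart closes the gate, ran from 130 through 158 to 202 CPM against 169 through 197 to 208 CPM. These ranges overlapped. Its log2 change of -0.26 ± 0.091 was called (edgeR, adjusted p = 0.020), but the call was lost without female M-CSF+RANKL replicate 1 (edgeR, adjusted p = 0.063), male M-CSF+RANKL replicate 3 (0.063) or male M-CSF replicate 1 (0.057). The other 9 core genes lay between -0.21 (Psmb4) and 0.17 (Psmb3) on the log2 scale.

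In the regulatory particle 2 of 17 genes were called higher and 4 lower, against 33.4% and 31.3% of all genes, with a median log2 change of -0.09. Of the 6 ATPases of the base, the ring that unfolds substrates, 2 were called lower (33.3%), a share near that of all genes. Their median log2 change was -0.17. Psmc1, an ATPase whose tail docks in the alpha ring, had 185, 240 and 217 CPM in female and 221, 192 and 181 CPM in male M-CSF+RANKL libraries, against 287, 284 and 309 CPM in female and 277, 262 and 278 CPM in male M-CSF libraries. All 6 M-CSF+RANKL libraries lay below all 6 M-CSF libraries, and the log2 change was -0.46 ± 0.077 (edgeR, adjusted p = 0.00012). Psmc3, another docking ATPase, ran from 187 through 210 to 244 CPM with M-CSF+RANKL, against 236 through 258 to 283 CPM with M-CSF, with a slight overlap (log2 change -0.27 ± 0.073, edgeR adjusted p = 0.0051). The other 4 ATPases were not called.

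Of the other base subunits, Psmd2, the scaffold that receives ubiquitin-like domains, ran from 489 through 497 to 521 CPM with M-CSF+RANKL, against 434 through 447 to 481 CPM with M-CSF. The groups did not overlap, but the change was slight (log2 0.15 ± 0.057, edgeR adjusted p = 0.032). That call was lost in 8 of the 12 fits that left out 1 library, all but those without female M-CSF+RANKL replicate 1 or 3, female M-CSF replicate 2 or male M-CSF replicate 3. Psmd4, a receptor for ubiquitin chains, ran from 135 through 149 to 183 CPM against 130 through 144 to 157 CPM and was not called (log2 change 0.12 ± 0.080). Psmd1 lay at -0.06 and was not called either.

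The lid held changes in both directions. Psmd8 had 255, 317 and 252 CPM in female and 307, 269 and 244 CPM in male M-CSF+RANKL libraries, against 347, 387 and 418 CPM in female and 352, 352 and 334 CPM in male M-CSF libraries. Its groups did not overlap, and the log2 change was -0.41 ± 0.083 (edgeR, adjusted p = 0.00061). Psmd7, the partner of the deubiquitinase Psmd14, ran from 214 through 223 to 271 CPM with M-CSF+RANKL, against 170 through 192 to 204 CPM with M-CSF. It rose without overlap (log2 change 0.31 ± 0.078, edgeR adjusted p = 0.0034). Psmd14, which cuts ubiquitin chains off the substrate, ran from 171 through 194 to 217 CPM against 179 through 199 to 211 CPM and was not called (95% interval of the log2 change -0.18 to 0.13). Psmd13 was called lower at -0.17 ± 0.066 (edgeR, adjusted p = 0.038), and this call was lost in 8 of the 12 fits without 1 library, all but those without female M-CSF+RANKL replicate 2, male M-CSF+RANKL replicate 1, or male M-CSF replicate 2 or 3. The other 4 lid genes, Psmd3, Psmd6, Psmd11 and Psmd12, lay between -0.10 and 0.11.

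Set side by side, the mean log2 CPM of the 14 core genes was 7.36 to 7.81 with M-CSF+RANKL and 7.29 to 7.64 with M-CSF, and that of the 17 regulatory genes was 7.50 to 7.76 against 7.57 to 7.77. Core minus regulatory was -0.10, 0.04 and -0.09 in female and 0.00, -0.03 and -0.14 in male M-CSF+RANKL libraries, against -0.22, -0.18 and -0.12 in female and -0.18, -0.25 and -0.34 in male M-CSF libraries. The groups overlapped only through female M-CSF replicate 3 and male M-CSF+RANKL replicate 3. Libraries of the same sex and replicate number were also set in pairs, a pairing inferred from these counts and not stated by the labels. In 6 of 6 such pairs the difference was higher with M-CSF+RANKL. Its mean moved by 0.17 on the log2 scale, made of 0.08 in the core and -0.08 in the regulatory genes. With the median over members in place of the mean it moved by -0.02, so the mean and the median differed in sign. No test was run on these sums, since the members were chosen.

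**Figure D3:**
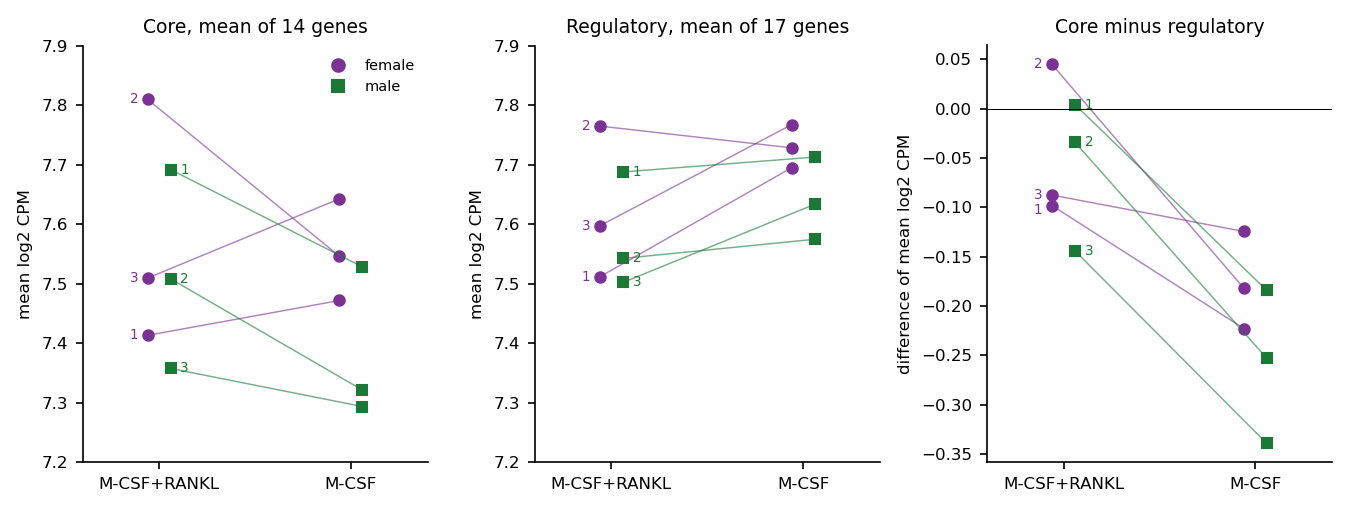
Mean log2 CPM of the 14 core genes, of the 17 regulatory genes, and their difference, in each library; lines join libraries of the same sex and replicate number, the number stands beside the M-CSF+RANKL point, and circles are female and squares male. The difference is higher with M-CSF+RANKL in all 6 pairs, whereas the core mean is higher in 4 of 6 and the regulatory mean in 1 of 6. The labels do not state this pairing.

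Subunit levels also moved together from library to library. Female M-CSF+RANKL replicate 2 had the highest CPM of its 6 in 28 of the 31 core and regulatory genes, and male M-CSF+RANKL replicate 3 the lowest in 19. Among M-CSF libraries, female replicate 3 was highest in 18 and male replicate 2 lowest in 18. The 41 members took 0.637% to 0.790% of counts with M-CSF+RANKL and 0.660% to 0.767% with M-CSF, so their share of the library overlapped between treatments.

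The 3 base chaperones were all called, 2 higher and 1 lower, where 64.7% of all genes were called. Psmd10 (gankyrin), which holds the ATPase Psmc4 during assembly, had 83.2, 108 and 79.7 CPM in female and 105, 90.0 and 83.0 CPM in male M-CSF+RANKL libraries, against 35.4, 35.6 and 33.9 CPM in female and 32.3, 28.4 and 28.6 CPM in male M-CSF libraries. The lowest M-CSF+RANKL library stood at 79.7 CPM and the highest M-CSF library at 35.6 CPM. The log2 change was 1.51 ± 0.093, or 2.84-fold (edgeR, adjusted p = 6.2e-09), and lay between 1.43 and 1.55 in all 17 alternative fits. Psmd10 shares its promoter stretch with Atg4a, a gene of autophagy that starts in the opposite direction. Atg4a ran from 31.7 through 33.7 to 35.9 CPM with M-CSF+RANKL, against 18.3 through 21.6 to 23.1 CPM with M-CSF, and was also called higher (log2 change 0.68 ± 0.080, edgeR adjusted p = 4.8e-06); it was looked up after the Psmd10 values were seen.

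Psmd5, another base chaperone, ran from 91.8 through 105 to 116 CPM with M-CSF+RANKL, against 72.6 through 90.7 to 96.0 CPM with M-CSF (log2 change 0.26 ± 0.080, edgeR adjusted p = 0.012). Its groups overlapped a little. Psmd9, the remaining one, ran from 31.9 through 35.5 to 38.0 CPM against 39.8 through 42.8 to 48.1 CPM and fell without overlap (-0.30 ± 0.077, edgeR adjusted p = 0.0034). The ratio of Psmd10 to Psmd9 was accordingly 2.29 to 2.86 with M-CSF+RANKL and 0.705 to 0.829 with M-CSF.

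Activators cap the core in place of the regulatory particle. Psme1 and Psme2 build the interferon-inducible PA28 alpha-beta ring, and they parted here. Psme1 had 89.0, 112 and 110 CPM in female and 102, 95.5 and 85.9 CPM in male M-CSF+RANKL libraries, against 148, 155 and 177 CPM in female and 140, 138 and 129 CPM in male M-CSF libraries. It was lower in every M-CSF+RANKL library (log2 change -0.57 ± 0.080, edgeR adjusted p = 2.2e-05). Psme2 ran from 139 through 168 to 218 CPM with M-CSF+RANKL, against 141 through 162 to 188 CPM with M-CSF, and was not called (0.07 ± 0.104). The ratio of Psme1 to Psme2 was 0.513 to 0.656 against 0.813 to 0.946, without overlap. Psme2b, the copy of Psme2, had 4.31 to 6.99 CPM against 5.35 to 7.83 CPM and could share reads with Psme2.

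Interferon-stimulated genes moved in the same direction as Psme1. Of 17 tested, 13 were called lower and none higher, where 31.3% of all genes were called lower. In female cells 6 of 17 were called lower (25.1% of all genes), with a median log2 change of -0.71. In male cells 14 of 17 were called lower (26.6% of all genes), with a median of -1.83. The interaction test called none of them. All 18 genes of the list summed to 147 to 257 CPM with M-CSF+RANKL and 303 to 835 CPM with M-CSF. The highest sum, 835 CPM, was in male M-CSF replicate 2, and the other M-CSF libraries had 303 to 480 CPM. In that library Psme1 had 138 CPM, the middle value of its group, and the interferon genes' part in the Psme1 change was not tested. Psme3, the nuclear PA28 gamma, ran from 171 through 187 to 197 CPM against 152 through 172 to 184 CPM and was not called (0.13 ± 0.068). Psme4 (PA200), a nuclear cap linked to acetylated histones, ran from 105 through 137 to 144 CPM against 130 through 160 to 173 CPM with overlap (-0.23 ± 0.093, edgeR adjusted p = 0.041). Its call was lost in 8 of the 12 fits without 1 library, all but those without female M-CSF+RANKL replicate 1, male M-CSF+RANKL replicate 3, female M-CSF replicate 2 or male M-CSF replicate 1.

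The remaining members were low. Psma8 had 2.98 to 4.50 CPM with M-CSF+RANKL and 2.13 to 4.16 CPM with M-CSF and was not called (0.39 ± 0.187). Psmc3ip had 5.26 to 10.7 CPM against 9.39 to 15.4 CPM and was called lower (-0.54 ± 0.164, edgeR adjusted p = 0.010), with overlapping groups.

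Replicate numbers within a sex deviated together, a pairing inferred from these counts and not stated by the labels. A fit with these pairs as a block called 10 members higher and 12 lower, 53.7% against 71% of all genes (36.7% higher and 34.3% lower). All 17 earlier calls stayed. The added calls were Psmb3 (0.16, edgeR adjusted p = 0.043) and Psma8 (0.40, 0.023) higher, and Psmb4 (-0.21, 0.010), Psmc2 (-0.18, 0.028) and Psma7 (-0.15, 0.048) lower, so that 3 core genes were called lower under the block.

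The sexes shared most of their member calls. The share of all genes called in both sexes is not given here, so this overlap is not read as particular to the members. In female cells 5 members were called higher and 5 lower, 24.4% in all. Of all genes 26.8% were called higher and 25.1% lower there, 51.9% together. In male cells 7 members were called higher and 4 lower, 26.8% in all, against 28.4% and 26.6% of all genes, 55% together. Called in both sexes were 8 members: Psmd10, Psmb7, Psma6, Psma3 and Psmd7 higher, and Psme1, Psmd8 and Psmc1 lower. Of these, Psmd7 in both sexes, Psma3 in female and Psmd8 in male cells lost the call in at least 1 alternative fit. Psmd10 changed by 1.37 ± 0.131 in female and 1.64 ± 0.132 in male cells on the log2 scale, and Psmb7 by 0.54 ± 0.106 and 0.68 ± 0.106. Psmb5 was called in male cells (0.57 ± 0.178, edgeR adjusted p = 0.014) and not in female cells (0.36 ± 0.178, edgeR adjusted p = 0.11). With same-numbered libraries as a block it was called in female cells as well (0.33 ± 0.104, edgeR adjusted p = 0.014).

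The female and male responses were tested against each other. The interaction test called 0 of 41 members and 0 of all genes by edgeR (0% of genes), and at an unadjusted p below 0.05 it marked 0 members and 260 genes (1.96%). The 95% interval of the difference in response lay within 1.5-fold for 34 of 41 members, against 39% of all genes, again without matching for abundance. The counts within a sex leaned on single libraries: the female counts were 3 higher and 12 lower without female M-CSF+RANKL replicate 2, and without male M-CSF+RANKL replicate 1 the male count was 4 higher. Female counts were 3 higher without any one female M-CSF library and 3 lower without female M-CSF+RANKL replicate 1 or female M-CSF replicate 3. Male counts were 4 higher without male M-CSF replicate 3 and 2 lower without male M-CSF+RANKL replicate 2 or 3 or male M-CSF replicate 1. With the replicate block, 6 members were called higher and 9 lower in females, against 31.2% and 29.3% of all genes. In males 8 were called higher and 8 lower, against 32.6% and 30.5%. Called members of either direction made up 36.6% against 60.5% of all genes in females and 39% against 63.1% in males.

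**Figure D4:**
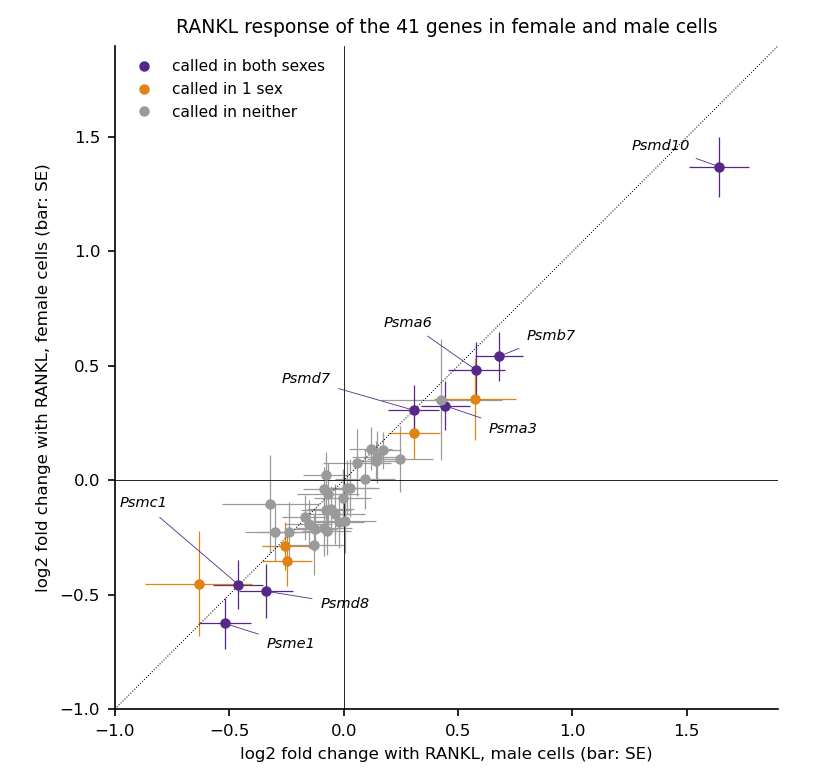
Log2 fold change with RANKL in female cells (vertical) against male cells (horizontal) for the 41 members, with SE bars and a dotted line of equal change; colours mark members called in both sexes, in 1 or in neither. The 8 members called in both sexes changed in the same direction in each. Psmd10 lies below the line, at 1.37 in female and 1.64 in male cells, though the interaction test did not call it.

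Female and male cells were also set against each other within a treatment. With M-CSF+RANKL 0 of 41 were called (0.0529% of all genes) and with M-CSF 0 of 41 (0.0453%), and none had an unadjusted p below 0.05 (3.36% and 3.61% of all genes). The female level was the higher one in 34 of 41 members with M-CSF+RANKL and in 37 of 41 with M-CSF, all 14 core genes among the 37. The median differences were 0.05 and 0.13 on the log2 scale, and members of 1 library moved together, so these counts are not 41 separate observations. The 10 neutrophil granule markers also stood higher in female cells, by a median of 1.34 with M-CSF+RANKL and 1.49 with M-CSF on the log2 scale, though none was called (edgeR). Their sum was 103 to 322 CPM in female and 59.2 to 91.0 CPM in male libraries with M-CSF+RANKL, and 99.2 to 313 CPM in female and 56.9 to 83.6 CPM in male libraries with M-CSF. Their part in the subunit levels was not tested. The 95% interval lay within 1.5-fold for 39 of 41 with M-CSF+RANKL (61.7% of all genes) and 38 of 41 with M-CSF (57.3%). Members and all genes were not matched for abundance here either. In the authors' deposited table, which gave values for 40 members, 5 were higher and 5 lower in females and 7 higher and 4 lower in males at the same threshold, and all were called in the same direction here. Both used edgeR on the same libraries, so the match is no independent support.

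Levels of different subunits can be compared once divided by exon length (CPM per kilobase). The median core gene stood at 70.6 ± 8.99 with M-CSF+RANKL and 79.4 ± 7.62 with M-CSF (SD, n = 6 libraries), and the median regulatory gene at 68.5 ± 5.72 and 69.7 ± 4.45. By union exon length, the highest core gene was Psma6 (249 ± 27.6 against 173 ± 19.1 CPM per kilobase) and the lowest Psmb7 (43.7 ± 4.58 against 28.6 ± 1.85). The catalytic Psmb5 (129 ± 22.8 against 93.7 ± 14.7) and Psmb6 (126 ± 15.2 against 126 ± 10.5) stood above Psmb7 in both treatments. In the regulatory particle levels ran from Psmd11 (25.1 ± 1.07 against 23.2 ± 1.23) up to Psmd2 (124 ± 3.04) with M-CSF+RANKL and Psmc1 (146 ± 7.91) with M-CSF. Psmd10, at 62.3 ± 8.37 against 22.0 ± 2.19 CPM per kilobase, had a lower mean than every regulatory gene with M-CSF, though within 1 SD of Psmd11. Psma8 stood at 1.59 ± 0.220 against 1.22 ± 0.325 CPM per kilobase. Dividing by the longest transcript in place of all exon bases puts the core medians at 127 and 129 and the regulatory medians at 94.3 and 101, so the gap between particles depends on the length chosen. By that length the highest core gene with M-CSF was Psmb6 (245) in place of Psma6 (205 ± 22.6), and the highest regulatory gene with M-CSF was Psmd8 (184) in place of Psmc1 (178). Psma6 and Psmd2 remained highest with M-CSF+RANKL, and Psmd10, at 64.0 with M-CSF+RANKL and 22.6 with M-CSF, was below the lowest regulatory gene, Psmd11 (49.8), only with M-CSF.

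Other genes of the pathway were read from 7 lists. Of all genes 33.4% were called higher and 31.3% lower over both sexes. Of the 3 immunoproteasome subunits, which replace the catalytic ones, 2 fell and none rose: Psmb10 had 39.1 through 43.1 to 50.1 CPM with M-CSF+RANKL, against 57.4 through 71.5 to 76.9 CPM with M-CSF (log2 change -0.67 ± 0.080), and Psmb8 had 48.5 through 58.9 to 71.0 CPM against 69.2 through 82.3 to 109 CPM (-0.53 ± 0.108). Psmb9 was not called (-0.18 ± 0.114). Of 5 chaperones of the core, Psmg4 alone was called, and it was lower (-0.79 ± 0.166), while Pomp, which completes the beta ring, was at 0.00 ± 0.103. Among 10 further subunits and associated proteins, 1 rose and 1 fell. The riser was Zfand5, described in mouse muscle as a stimulator of the proteasome, with 409 through 416 to 461 CPM against 83.6 through 98.0 to 118 CPM (2.10 ± 0.090, edgeR adjusted p = 1.8e-10). Uchl5, a deubiquitinase of the regulatory particle, fell (-0.53 ± 0.090).

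Of 11 genes that govern proteasome gene transcription, 2 rose and 6 fell, against 33.4% and 31.3% of all genes. In female cells 2 rose and 4 fell (26.8% and 25.1% of all genes). In male cells 2 rose and 5 fell (28.4% and 26.6%). Ngly1, the glycanase that processes the transcription factor Nrf1 into its active form, had 49.5 through 54.0 to 56.8 CPM with M-CSF+RANKL, against 17.7 through 18.7 to 24.0 CPM with M-CSF (1.45 ± 0.086, edgeR adjusted p = 4.2e-09). Nfe2l1, which encodes Nrf1 itself, was not called (-0.08 ± 0.110). Nfe2l2, which encodes Nrf2, fell (-0.74 ± 0.078), as did Keap1, the adaptor that marks Nrf2 for destruction (-0.86 ± 0.081), and Nfya, a subunit of NF-Y (-0.60 ± 0.061), whereas the small Maf gene Maff rose (1.25 ± 0.198).

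Upstream of the proteasome, ubiquitin genes and E1 enzymes gave 1 higher and 3 lower of 6, against 33.4% and 31.3% of all genes. The main E1 enzyme Uba1 was among the lower ones, at -0.26 ± 0.059. One of the 3, the E1 enzyme Uba6 (-0.39, edgeR adjusted p = 0.045), lost its call in 8 of the 12 fits that left out 1 library, all but those without female M-CSF+RANKL replicate 1, male M-CSF+RANKL replicate 3, female M-CSF replicate 2 or male M-CSF replicate 1 (edgeR adjusted p up to 0.112). Shuttle factors, which carry tagged proteins to the proteasome, gave 2 higher and 0 lower of 6, led by Rad23b with 303 through 337 to 377 CPM with M-CSF+RANKL, against 182 through 208 to 230 CPM with M-CSF (0.71 ± 0.071). The other call, Ubqln1 (0.20, edgeR adjusted p = 0.021), was lost without the low-count filter (0.065) and without female M-CSF replicate 3 (0.056), male M-CSF+RANKL replicate 3 (0.062) or male M-CSF replicate 2 (0.068), which leaves 1 higher. The unfoldase p97 and its cofactors gave 2 higher and 0 lower of 6, Nploc4 at 0.36 ± 0.067 and Faf2 at 0.29 ± 0.059. The unfoldase itself (Vcp) was not called (-0.07 ± 0.061). In the fit of all 12 libraries, the share called higher in each of these last 2 lists was near the 33.4% of all genes. Over the 7 lists 21 of 46 different genes were called (45.7%), against 64.7% of all genes.

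**Figure D5:**
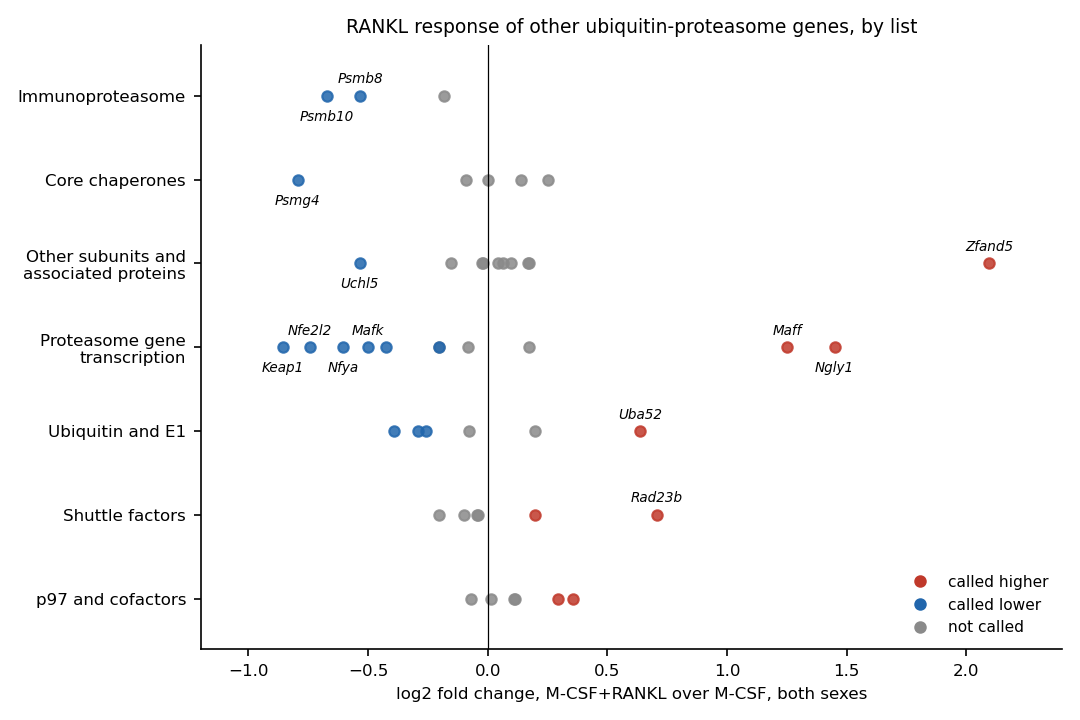
Log2 fold change of each tested gene of 7 ubiquitin-proteasome lists, M-CSF+RANKL over M-CSF with both sexes together; red is called higher, blue called lower and grey not called, with names for called genes at 0.5 or beyond. Zfand5 at 2.10, Ngly1 at 1.45 and Maff at 1.25 stand furthest to the right and Keap1 at -0.86 furthest to the left.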

How the data were processed

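The authors deposited raw counts per gene for 12 mouse RNA-seq libraries and, in a further table, log2 fold changes with p-values of their own edgeR comparisons. Per the submitters' processing notes, fastp, STAR 2.7.3a, edgeR and build mm10 were used. Which program counted the reads, and with which strand setting and annotation, is not given in the sources used here. Overlapping genes are therefore uncertain, and the authors' table tags Psma2, Psmd1 and Psmd12 as overlapping. Counts were tested with edgeR 4.0.16 in R 4.3.3: 4 group means, all 12 libraries, TMM scaling, filterByExpr with a minimum count of 10, the quasi-likelihood test and Benjamini-Hochberg adjustment over 13236 genes. Log2 CPM used a prior count of 2. The SE is the log2 change divided by the root of F. Replicates of a group differed by more than sampling noise. Same-numbered libraries of a sex deviated together (correlation 0.302 to 0.706, other numbers -0.618 to -0.0096). Pairing by number was inferred from these same counts and is not stated by the labels. With 3 libraries in a group, positive values for the same number bring negative ones for other numbers. The ranges are therefore not separate evidence. Exon lengths and gene positions came from GENCODE M21. Values in every library or as ranges were given for the 4 largest rises and 4 largest falls among core and regulatory genes with at least 5 CPM in the higher group. The same was done for the catalytic subunits, Psmd4, Psmd14, the activators, and chaperones or copies that behaved otherwise. Each pathway list gave up to 4 called genes, or its 2 most abundant where none was called. Members and lists were chosen with earlier results of these data known. The alternatives tried were other scalings, no low-count filter, DESeq2 1.42.0, replicate blocks, single-sex fits and leaving out each library. Code was tested on simulated data.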

Additional observations from a re-analysis of the deposited data

How the results depend on the processing

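Of the 17 members called over both sexes, 13 stayed called with the same direction in all 17 alternative fits, and Psma4, Psmd2, Psmd13 and Psme4 did not. Without the low-count filter the calls of Psmd2 and Psmd13 were lost, leaving 1 regulatory gene called higher. Scaling by library size alone gave 7 members lower in males and 2 core genes lower. The replicate block within a sex gave 9 members lower in females, 8 in males and 3 core genes lower, and it turned the direction of no called member. Over all genes, those called higher in female than in male cells numbered 6 with M-CSF+RANKL and 7 with M-CSF without the filter, 15 and 11 by DESeq2, and 4 and 3 with the replicate block across the sexes, against 2 and 1; none was a member. The cause of these shifts was not tested. The change of core minus regulatory was -0.024 with the median over members, and CPM per kilobase of the longest transcript gave 127 and 129 for the core and 94.3 and 101 for the regulatory genes.

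Leaving out 1 library at a time, the members called higher numbered 7 to 8 and lower 7 to 11 over both sexes, 3 to 6 and 3 to 12 in females, and 4 to 7 and 2 to 6 in males. Core genes called lower numbered 0 to 3 (0 without female M-CSF+RANKL replicate 1, male M-CSF+RANKL replicate 3 or male M-CSF replicate 1, 3 without female M-CSF+RANKL replicate 2 and 2 without male M-CSF replicate 3), and regulatory genes called higher 1 to 2. All genes called higher in female cells numbered 1 to 7 with M-CSF+RANKL and 1 to 4 with M-CSF. The change of core minus regulatory ranged from 0.14 to 0.19. Members close to 0 turned sign: Psmb6 ranged from -0.063 to 0.043 (0.0055 with RLE scaling and 0.0055 by DESeq2), Psmc4 from -0.078 to 0.040, Psmd14 from -0.062 to 0.0064, Psmd3 from -0.10 to 0.016, Psmb2 from -0.031 to 0.10 and Psme2 from -0.019 to 0.13; none of them was called in the fit of all 12 libraries. With SEs of 0.057 to 0.187 over both sexes, the smallest change that 6 libraries against 6 can show differs between members. Changes near 0.15 on the log2 scale lie at that edge only for members with the smallest SEs. For the others, larger changes may have gone uncalled. The authors' counting of reads shared with copies is unknown.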
